A study of Homo sapiens with 9 samples.

Results

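The heat shock chaperones described here are 10 genes, chosen by name from 78899 gene IDs: HSPA1A, HSPA1B, HSPA8, HSPH1, DNAJB1, BAG3, HSP90AA1, HSPB1, HSPD1 and HSPE1. Each symbol matched 1 ID, and all 10 passed the filter on low counts that left 16921 genes for testing. RNA came from HaCaT cells, an established line of immortalized human keratinocytes grown at low calcium in high-glucose medium with 10% fetal bovine serum. The study sorted the line by fluorescence into a subpopulation labelled BD (3 libraries) and one labelled NBD (3 libraries), and its labels name 3 further libraries control. The names BD and NBD are not spelled out, no agent, heat treatment or time is given for any group, and the series concerns progenitor-associated states of this 1 cell line. The labels do not say whether control cells went through the sorter.

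Chaperones bind unfolded or partly folded proteins and keep them from aggregating. In the cytosol, HSP70 proteins take up a client with the help of J-domain cochaperones and release it when an exchange factor opens the nucleotide site, and HSP90 then matures many kinases and hormone receptors. HSP60 and HSP10 form the folding chamber of mitochondria. When unfolded proteins accumulate, heat shock factor 1 (HSF1) trimerizes and binds heat shock elements, arrays of alternating GAA and TTC triplets, in the promoters of these genes. Some members are made in every cell and others are known mainly as inducible, and keratinocytes, which face heat and ultraviolet light at the body surface, carry both kinds.

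The members differ in the heat shock elements of their promoters, so the stretches around these elements are given first. Sequences are from the RefSeq promoter table on GRCh38.p14, read 5′ to 3′ on the gene's strand, and capitals mark the bases of a heat shock element. Another annotation, GENCODE 29 basic, places some of these bases in exons of the same strand. These are 29 of 70 bases for HSPA1A and 30 of 30 for HSP90AA1 and for HSPA8. For HSPA1B, HSPA6 and HSPD1 it is 0. The inducible HSP70 pair holds a short element, in stretches that end 51 and 50 bases before the RefSeq start, at chr6:31815423-31815492 (plus strand) for HSPA1A and chr6:31827619-31827688 (plus strand) for HSPA1B.
HSPA1A: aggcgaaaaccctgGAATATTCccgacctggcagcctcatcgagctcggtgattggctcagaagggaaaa
HSPA1B: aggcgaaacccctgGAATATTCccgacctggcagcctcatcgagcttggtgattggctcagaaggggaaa
The 250 bases upstream of the 2 starts aligned with 235 of 251 columns identical, or 93.6%. The longer form, with 3 triplets in a row, stood in 3 members, at chr14:102087105-102087134 for HSP90AA1, chr11:123062171-123062200 for HSPA8 and chr2:197500061-197500090 for HSPD1, all on the minus strand.
HSP90AA1: tcTTCCGGAAGGTTCgggaggcTTCTGGAA
HSPA8: gcgggccccTTCTGGAAGGTTCtaagatag
HSPD1: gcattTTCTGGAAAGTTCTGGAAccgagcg
HSPA6, the strictly inducible HSP70 of human cells and no member of the list, is shown for contrast because it also holds the long form, at chr1:161524420-161524489 (plus strand).
HSPA6: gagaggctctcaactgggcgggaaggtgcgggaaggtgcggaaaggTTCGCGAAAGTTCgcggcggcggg

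The short form searched for was GAANNTTC or TTCNNGAA and the long form GAANNTTCNNGAA or TTCNNGAANNTTC, on both strands in the 250 bases before each RefSeq start, and every long form contains short forms. The 10 members matched 14 such promoters. A short form was found for 7 members (HSPA1A, HSPA1B, HSPA8, HSP90AA1, HSPD1, HSPB1 and DNAJB1) and a long form for 3 of them. Of 35116 promoters of 27305 genes in the table, 11.6% held a short form and 0.441% a long form. These shares count promoters, whereas a member counts if any of its promoters held the form, so the 2 measures are not alike. For HSPH1, HSPE1 and BAG3 neither spelling is in these windows, which says nothing about whether the factor binds near them. The HSPD1 and HSPE1 genes lie head to head on chromosome 2, and the element printed for HSPD1 lies between the RefSeq start of HSPE1 and the farther of 2 HSPD1 starts, downstream of the nearer one.

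Libraries held between 17128797 and 29512856 counts, with control replicates 1 and 2 the shallowest. These 2 control libraries stood apart from the other 7. Control replicate 1 lay above all 6 sorted libraries for 24.4% of tested genes and below them for 28.5%, and control replicate 2 did so for 25% and 28.4%, while control replicate 3 did so for 5.87% and 6.81%. The summed level of 8 immediate-early genes (FOS, JUN, EGR1 and relatives, switched on within minutes by stress and growth signals) ran from 711 to 1903 CPM in BD and from 794 to 1440.4 in NBD, against 127, 154 and 1673 CPM in control replicates 1, 2 and 3. Mitochondrial rRNA took 17.3 to 28.9% of counts in the sorted libraries, against 12.3, 11.9 and 20.7% in the controls. Results against control are therefore given with all 3 control libraries, without control replicate 3, and with control replicate 3 alone. Keratinocyte markers (KRT5, KRT14 and 5 others) summed to between 2434 and 2837 CPM in BD, between 2196 and 2668 in NBD and between 2398 and 3217 in control. These sums hide members that went opposite ways: KRT15 was at 285 to 446 CPM in the sorted libraries, against 27.1, 27.3 and 442 in the 3 controls, ITGA6 at 288 to 446, against 769, 743 and 322, and KRT5 at 323 to 719.6, against 1012, 1241 and 367. All 3 were called in BD and in NBD without control replicate 3. That fit called many genes: 24.3% of 17755 for BD against control, and 3228 genes for NBD against control. All 6 fibroblast and all 4 melanocyte markers stayed under 5 CPM in every library, as did 3 of 4 immune markers (not CD14) and 2 of 3 endothelial markers (not CDH5). None of these markers was at 0 everywhere. The summed immune markers ran from 3.85 to 6.86 CPM in the sorted libraries, against 1.07, 0.617 and 6.4 CPM in control replicates 1, 2 and 3. The endothelial sum ran from 6.66 to 18.9 CPM, against 2.61, 1.85 and 16.8, and the fibroblast sum from 2.7 to 5.03 CPM, against 0.715, 1.23 and 4.75. Without control replicate 3, CD14, CDH5 and COL1A1 were called higher in both BD and NBD (edgeR). The endothelial marker VWF went the other way and was called lower in BD in that fit. It stood at 0.0689 to 0.417 CPM in BD, against 1.53, 1.07 and 0.0753 in control. The part of these markers in the results below was not tested. In bulk RNA, fewer cells with a transcript and less of it per cell cannot be told apart.

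Levels are normalised CPM, a gene's counts relative to the scaled total of its library, and levels of different genes are compared per kilobase of annotated exon. HSPA8, the constitutive HSP70 of the cytosol, was the most abundant member, with 742 CPM per kb on average over the 9 libraries and a range from 553 to 865. HSP90AA1, the inducible HSP90, followed at 239 CPM per kb, and HSPD1, the mitochondrial HSP60, at 217. The inducible HSP70 genes stood at 74.4 for HSPA1A and 61.1 for HSPA1B. The small heat shock protein gene HSPB1 reached 53.6, the J-domain gene DNAJB1 45.8, the HSP110 gene HSPH1 34.2, the HSP10 gene HSPE1 33.1 and BAG3, a cochaperone that links HSP70 to autophagy, 16.2 CPM per kb. The length used joins all annotated exons of a gene. For HSPA1A it equals the longest protein-coding transcript, at 2483 bases. It is longer than that transcript for DNAJB1 (3672 against 2264 bases), HSPB1 (1634 against 909), HSPE1 (1977 against 950) and HSPD1 (4245 against 2455). Part of the order below HSPA8 therefore depends on the length chosen. The steps from HSPA8 to HSP90AA1 and from HSPD1 to HSPA1A were larger than the spread over libraries, while the ranges of all other neighbours overlapped. Overlap did not mean a mixed order in every case: HSPA1A was above HSPA1B, and HSPE1 above BAG3, in 9 of 9 libraries, whereas HSPH1 was above HSPE1 in 5 of 9. Of the 100-base windows of the HSPA1A transcript 69.9% are identical in HSPA1B, and how reads matching both were counted is not given. The levels of this pair, which may be too low, and its order therefore depend on the counting.

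**Figure D1:**
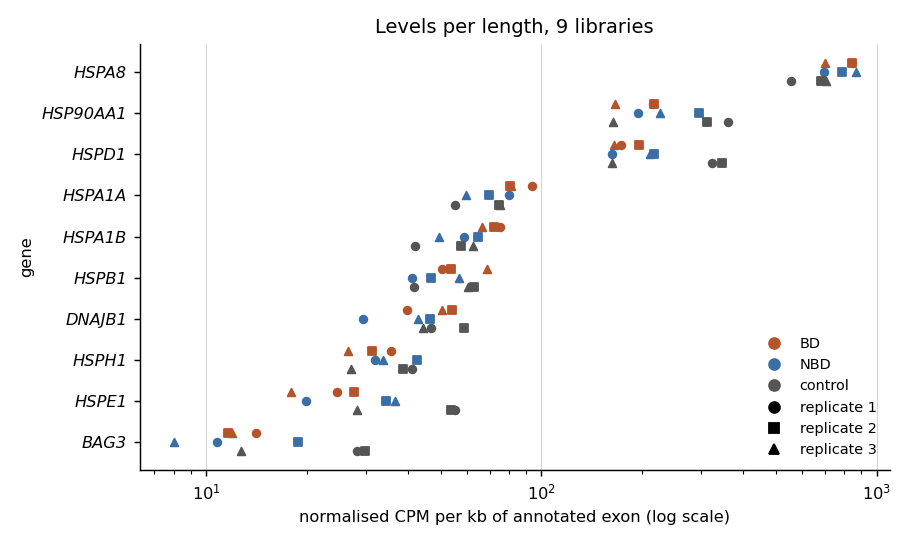
Level of each chaperone gene per kilobase of annotated exon in each of the 9 libraries, on a log axis in normalised CPM per kb; colours mark the group and shapes the replicate. HSPA8 lies between 553 and 865 in every library, above all other members, and BAG3 lies lowest by mean, at 16.2.

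Activity of the heat shock response itself was not tested. HSPA6, the strictly inducible HSP70 outside the list, was nearly silent. It had 6, 5 and 8 counts in BD, 6, 9 and 6 in NBD, and 3, 2 and 6 in control, or at most 0.372 CPM, and it did not pass the filter. Its paralog HSPA1A, by contrast, held 2678 to 6685 counts per library. The small heat shock protein genes were as uneven. CRYAB, the alpha-B crystallin gene, had at most 1 count in any library, HSPB2 and HSPB7 had none, and of 7 relatives of HSPB1 HSPB8 alone passed the filter. HSPB8, a partner of BAG3 in autophagy, stood at 4.03, 4.63 and 4.76 CPM in BD and at 2.78, 3.52 and 3.46 in NBD, against 1.18, 1.35 and 4.03 CPM in control.

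Together the 10 members took 0.727, 0.699 and 0.594% of all counts in BD and 0.609, 0.686 and 0.618% in NBD, against 0.754, 0.787 and 0.606% in control. Control replicates 1 and 2 gave the chaperones the largest share of all counts, and control replicate 3 lay within the range of the sorted libraries. The total includes mitochondrial rRNA, at 12.3 and 11.9% in control replicates 1 and 2, against 17.3 to 28.9% in the sorted libraries. Less rRNA alone raises the share of every other gene. The order of libraries does not hold once mitochondrial rRNA is taken out of the total. NBD replicate 2 (0.686%, with this rRNA at 26.8%) and BD replicate 1 (0.727%, at 22.3%) then stand above control replicates 1 and 2. Binomial 95% intervals (Wilson score) on these shares were no wider than 0.782 to 0.791% and cover counting error only.

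The first comparison is BD against NBD, the 2 sorted subpopulations, and no member was called different. edgeR called 0 of 10 members at an adjusted p under 0.05, 0 reached an unadjusted p under 0.05, and DESeq2 called 0. Across all genes edgeR called 3 of 16921, or 0.0177%, and DESeq2 called 0.345%. The members' log2 fold changes had a median of 0.01, beside -0.02 for all genes tested, with 6 above 0 and 4 below.

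**Figure D2:**
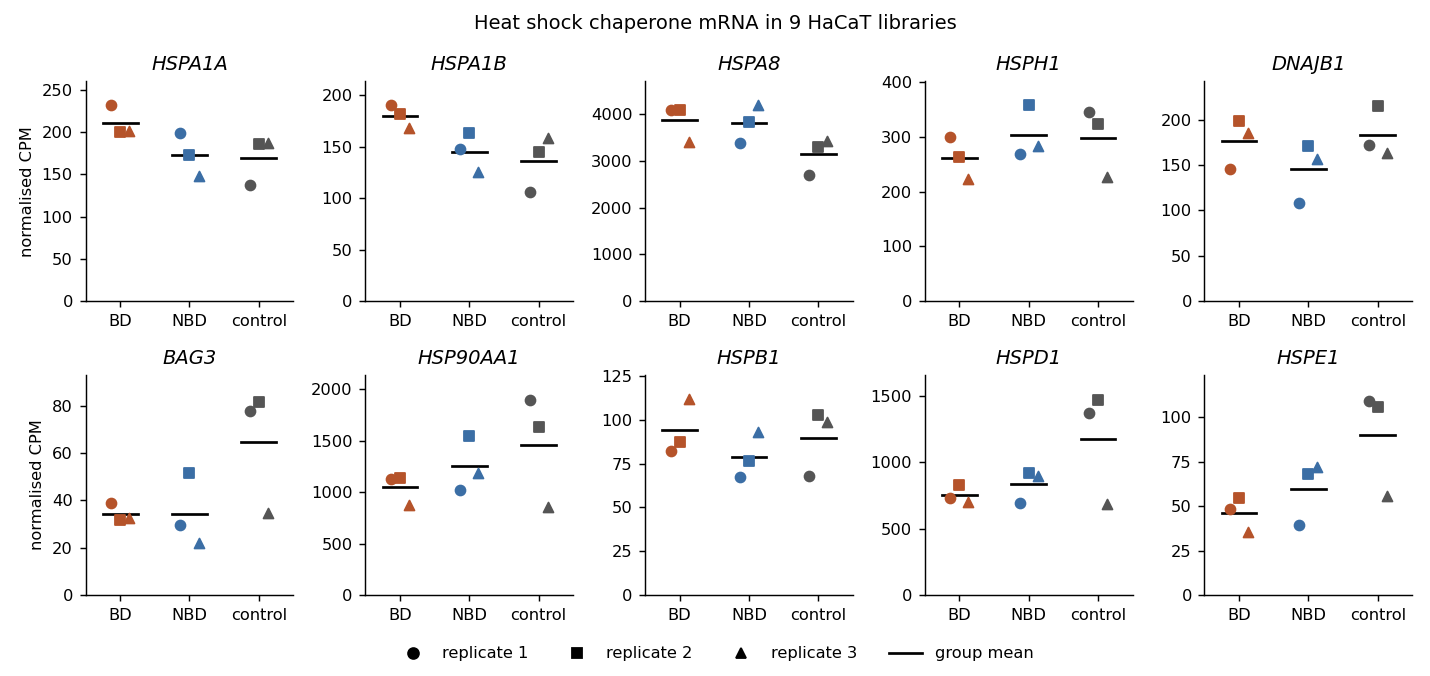
Normalised CPM of each member in each library, with BD left, NBD in the middle and control right; shapes mark the replicate number and bars the group mean. BD lies above NBD in every library for HSPA1A and HSPA1B only, and control replicates 1 and 2 lie above all sorted libraries for BAG3, HSP90AA1, HSPD1 and HSPE1.

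The inducible HSP70 genes were the members whose BD and NBD libraries did not overlap. HSPA1A (GRCh38 chromosome 6, 31815464 to 31817946) encodes HSP72, which refolds or hands on damaged proteins, and stood at 232, 200.1 and 201 CPM in BD, against 199, 173 and 148 in NBD and 137, 186 and 187 in control. Each BD library was above each NBD and each control library, although the lowest BD and highest NBD value nearly touched. HSPA1B (chromosome 6, 31827735 to 31830255), the neighbouring gene for nearly the same protein, stood at 190.1, 182 and 168 CPM in BD, against 148, 163 and 125 in NBD and 106, 145 and 158 in control, again without overlap. The log2 fold change of BD over NBD was 0.29 ± 0.19 (SE) for HSPA1A (edgeR, adjusted p = 0.842) and 0.31 ± 0.19 for HSPA1B (adjusted p = 0.829), and over 16 and 15 alternatives adjusted p stayed at or above 0.612 and 0.567. Their 95% intervals ran from -0.14 to 0.71 and from -0.12 to 0.74. BD lay wholly above NBD for 7.19% of all genes, beside these 2 of 10 members, which share most of their sequence. Of the 100-base windows of the HSPA1A transcript 69.9% are identical in HSPA1B, so how reads were split between them or dropped depends on the counting. Summed into 1 gene, the pair gave 0.30 (adjusted p = 0.842). HSPA1A held 51.6 to 57.4% of the pair's counts in the 9 libraries.

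None of the other members of the HSP70 cycle was called, and in none did BD and NBD separate. HSPA8 (chromosome 11, 123057489 to 123063230), the housekeeping HSP70, stood at 4089, 4089 and 3398 CPM in BD, against 3372, 3823 and 4194 in NBD and 2683, 3295 and 3419 in control. BD and NBD overlapped fully, and the fold change was 0.02 ± 0.23 (edgeR, adjusted p = 0.993). DNAJB1 (chromosome 19, 14514770 to 14529770), the HSP40 that loads clients onto HSP70, stood at 146, 198 and 185 CPM in BD, against 108, 170.4 and 157 in NBD and 172, 215 and 163 in control. Its fold change over NBD was 0.28 ± 0.22, with an interval from -0.21 to 0.77. HSPH1 (chromosome 13, 31134974 to 31162388), the HSP110 exchange factor that helps take aggregates apart, leaned the other way, at 299, 262 and 222 CPM in BD, against 268, 358 and 283 in NBD and 344, 323 and 226 in control, or -0.21 ± 0.22. HSPB1 (chromosome 7, 76302544 to 76304295), which encodes HSP27, which holds unfolded clients and protects actin filaments, had 82.3, 87.5 and 112 CPM in BD, against 67.2, 76.4 and 92.8 in NBD and 68.1, 103 and 98.5 in control, or 0.25 ± 0.21. BD and NBD overlapped for DNAJB1, HSPH1 and HSPB1 alike.

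The HSP90 and HSP60 genes had values below 0 and BAG3 one at 0, none called. For HSP90AA1 the fold change over NBD was -0.26 ± 0.31, for HSPD1 -0.14 ± 0.29, for HSPE1 -0.38 ± 0.31 and for BAG3 0.00 ± 0.36 (edgeR, adjusted p from 0.865 to 1). The 95% intervals, from -0.79 to 0.80 for BAG3 and from -1.06 to 0.30 for HSPE1, are wide, so equal levels are not shown. Of 5 ratios within libraries that were computed, 1 separated BD from NBD and 4 overlapped (HSPA1A to the HSPA1 pair, HSPD1 to HSPE1, HSPA8 to the pair, and HSPH1 to HSPA8). HSP90AA1 per length was 0.346, 0.303 and 0.267 of HSP90AB1, the constitutive HSP90, in BD, against 0.453, 0.467 and 0.411 in NBD and 0.445, 0.329 and 0.311 in control. Each BD value was below each NBD value, while control overlapped both. The ratio was given no test, and in the fit HSP90AB1 differed between BD and NBD by 0.28 ± 0.27 and HSP90AA1 by the -0.26 above, neither called.

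HSF1 itself stood higher in BD. It had 56.9, 59.4 and 57.1 CPM in BD, against 40.9, 37.9 and 23.7 in NBD and 40.9, 48.0 and 42.9 in control. The 3 BD libraries lay above the other 6, and the log2 fold change over NBD was 0.76 ± 0.21 with an unadjusted p of 0.00407, which did not pass adjustment over all genes (edgeR, adjusted p = 0.648). Over all genes 5.86% had an unadjusted p under 0.05 in this comparison. HSF2, a related factor, overlapped between the groups at 14.4, 18.2 and 15.6 CPM in BD and 13.9, 18.1 and 22.2 in NBD, against 22.4, 24.1 and 18.5 in control.

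**Figure D3:**
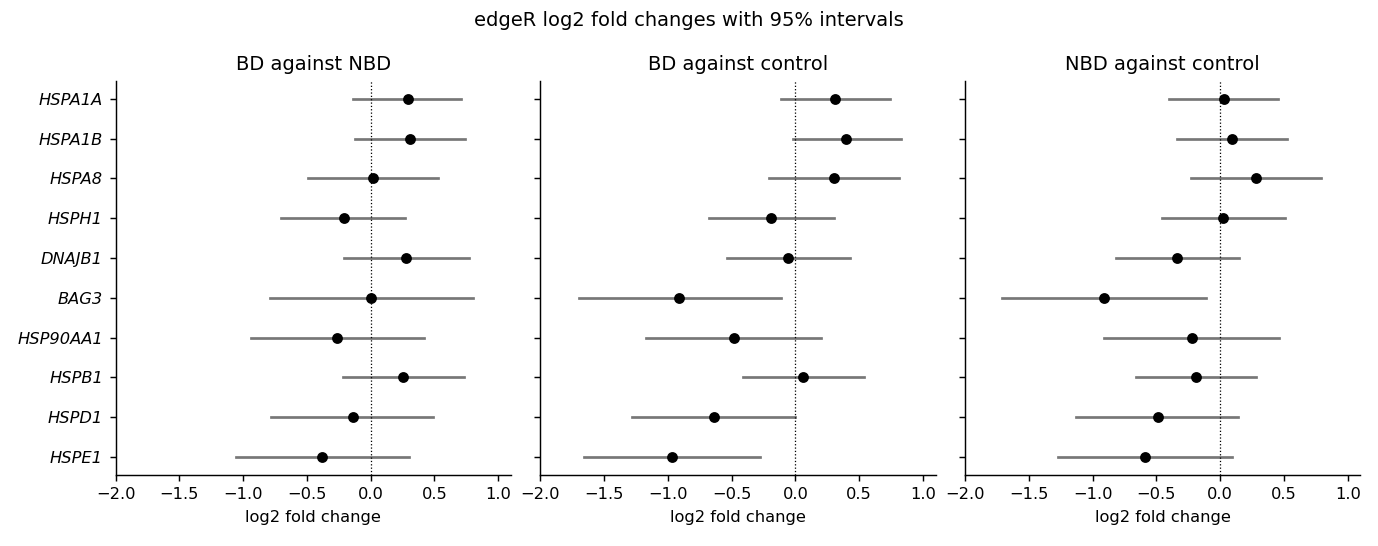
Log2 fold changes of the 10 members from the edgeR fit with their 95% intervals; the left panel compares the 2 sorted subpopulations, the middle and right panels set BD and NBD against control, and the dotted line marks no change. All 10 intervals include 0 for BD against NBD, and those of HSPE1 and BAG3 lie below 0 for BD against control. The interval of HSPD1 for BD against control ends at 0 after rounding (edgeR, unadjusted p = 0.0499).

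BD against control sets this subpopulation beside the libraries labelled control, and the lowest values relative to control were those of HSPE1, BAG3 and HSPD1. With all 3 controls, edgeR called 0 of 10 members and 0 of 16921 genes, and DESeq2 called 0 members and 1.12% of genes. At an unadjusted p under 0.05, 3 members were lower and 0 higher, against 9.06% lower over all genes. The median over members was -0.12, beside 0.03 for all genes.

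HSPE1 had the lowest fold change of the members, and its partner HSPD1 came after BAG3. HSPE1 (chromosome 2, 197499994 to 197503457), the lid of the chamber, stood at 48.4, 54.4 and 35.3 CPM in BD and 39.3, 68.1 and 72.3 in NBD, against 109, 106 and 55.6 in control. BD lay below all 3 controls, narrowly for control replicate 3, and NBD had values on both sides of that library. The log2 fold change of BD over control was -0.97 ± 0.31 (edgeR, unadjusted p = 0.0101, adjusted p = 0.333). HSPD1 (chromosome 2, 197486581 to 197516737), the chamber itself, stood at 733, 831 and 698 CPM in BD and 689.8, 917 and 894 in NBD, against 1368, 1466 and 687 in control. Control replicates 1 and 2 were far above every sorted library, and control replicate 3 was just below all of them. HSPD1 gave -0.64 ± 0.29 for BD over control (edgeR, adjusted p = 0.362). HSPD1 counts were 12.4 to 19.8 times those of HSPE1 in every library, a ratio that also reflects transcript length. The exons of the 2 genes overlap on opposite strands, and the labels give no strand setting for the counting. Of the windows of HSPE1 17% occur in other transcripts, 11% in HSPE1-MOB4, a readthrough gene counted at 0 to 6 per library.

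BAG3 (chromosome 10, 119651370 to 119677819) followed the same split among controls. It stood at 38.8, 31.9 and 32.7 CPM in BD and 29.6, 51.7 and 22 in NBD, against 77.6, 81.6 and 34.8 in control. Means were 34.5 ± 3.78 CPM in BD and 34.4 ± 15.4 in NBD, against 64.7 ± 25.9 in control (SD, n = 3 each), so the control spread was the widest. The fold change was -0.91 ± 0.36 for BD and -0.91 ± 0.36 for NBD over the same control libraries (edgeR, adjusted p = 0.344 for BD and 0.539 for NBD). HSP90AA1 (chromosome 14, 102080738 to 102139699) stood at 1129.7, 1134 and 871 CPM in BD and 1020.5, 1544 and 1187 in NBD, against 1892, 1633 and 858 in control. Here too control replicates 1 and 2 exceeded all sorted libraries and control replicate 3 lay below them, and the fold change of BD over control was -0.48 ± 0.31 (adjusted p = 0.466).

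The HSP70 genes had values above 0 against control, none called. BD lay wholly above control for HSPA1A, at 0.31 ± 0.19 (edgeR, adjusted p = 0.451), and for HSPA1B, at 0.40 ± 0.19 (adjusted p = 0.377), which is 2 of 10 members beside 8.05% of all genes. HSPE1 was the 1 member wholly below control, beside 7.72% of genes. HSPA8 gave 0.30 ± 0.23, with control replicate 1 the lowest of the 9 libraries at 2683 CPM. DNAJB1 at -0.06 ± 0.22, HSPB1 at 0.06 ± 0.21 and HSPH1 at -0.19 ± 0.22 lay nearer to 0. The 95% intervals of these 3 and of the 3 HSP70 genes included 0, running from -0.11 to 0.74 for HSPA1A, from -0.02 to 0.83 for HSPA1B and from -0.21 to 0.81 for HSPA8.

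The calls changed with the control libraries in the fit. Without control replicate 3, edgeR called 4 of 10 members lower in BD: HSPE1 fell by 1.22 ± 0.26 (adjusted p = 0.00829), BAG3 by 1.20 ± 0.29 (0.0130), HSPD1 by 0.90 ± 0.21 (0.0107) and HSP90AA1 by 0.74 ± 0.24 (0.0413). No member was called higher. In the same fit 10.5% of 17755 genes were called lower, and 24.3% in either direction, so the members' count stands above a background that is itself high. Against control replicate 3 alone, the same fold changes were -0.28 for HSPE1, -0.02 for BAG3, 0.13 for HSPD1 and 0.28 for HSP90AA1, with adjusted p of 1 for each. Without a filter on low counts and with all 3 controls, HSPE1 (-0.96, edgeR, adjusted p = 0.00430) and BAG3 (-0.90, 0.0134) were called lower in BD, beside 1.86% of 39344 genes. Their standard errors in that fit were 0.24 and 0.25, against 0.31 and 0.36 with the filter. For FOS, at 2.76, 3.31 and 518 CPM in control, the standard error was 0.26, against 1.42 with the filter. Calls without a filter therefore reflect less of the spread among control libraries. The immediate-early genes also moved with the choice of control libraries. In BD 8 of 8 were called higher at a median of 3.20 without control replicate 3, and 0 of 8 at a median of 0.92 with all 3 controls. Over all genes 24.3% were called in either direction in the first of these fits and 0 in the second. Their part in the chaperone values was not tested. Of the HSP70 genes, HSPA1A and HSPA1B kept values above 0 under both choices, at 0.40 and 0.54 without control replicate 3 and at 0.17 and 0.18 with it alone.

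**Figure D4:**
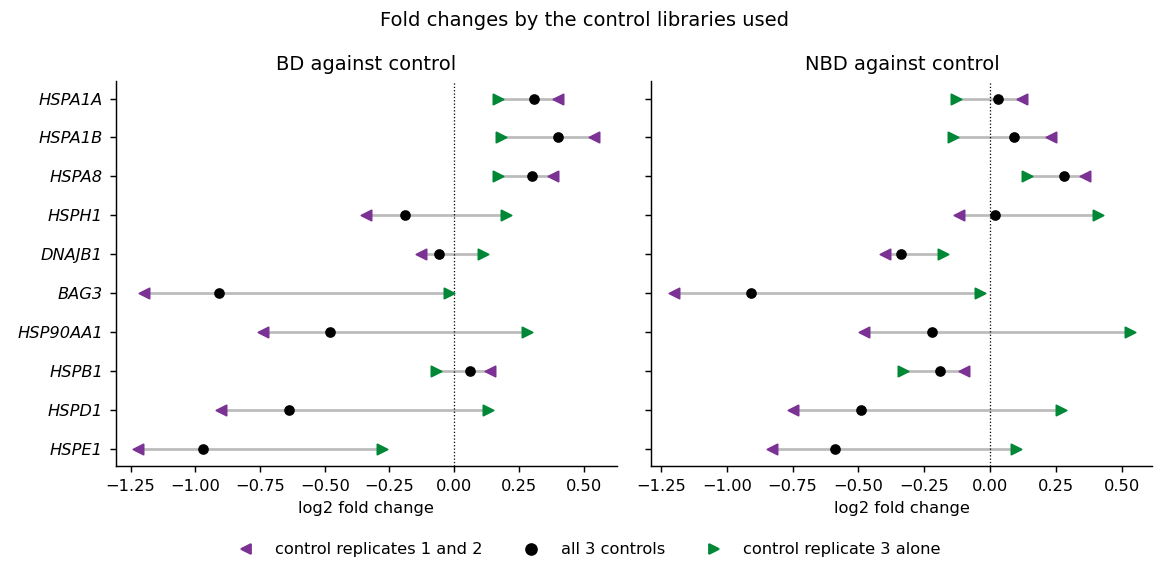
Log2 fold changes of the members over control in 3 fits, for BD left and NBD right; left-pointing triangles use control replicates 1 and 2, circles all 3 controls and right-pointing triangles control replicate 3 alone. BAG3 in BD moves from -1.20 to -0.02 and HSP90AA1 from -0.74 to 0.28, while HSPA1A and HSPA8 in BD stay above 0.

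NBD against control uses the same control libraries, so its values stand beside those of BD and are not a second, separate test. edgeR called 0 members and 0 genes with all 3 controls, 1 member (BAG3) was lower at an unadjusted p under 0.05 against 5.08% of genes, and DESeq2 called 0 members and 0.182% of genes. The members' median was -0.21, beside 0.04 for all genes, and no member separated NBD from control, while 8.42% of genes did. HSPE1 gave -0.59 ± 0.31, HSPD1 -0.49 ± 0.29, DNAJB1 -0.34 ± 0.22 and HSP90AA1 -0.22 ± 0.31 (edgeR, adjusted p from 0.548 to 0.769). HSPA1A at 0.03 ± 0.19 and HSPA1B at 0.09 ± 0.19 lay close to control. Without control replicate 3, HSPD1 fell by 0.75 ± 0.21 (adjusted p = 0.0305) and BAG3 by 1.20 ± 0.29 (adjusted p = 0.0171), 2 of 10 members beside 6.56% of genes called lower, and HSPE1 was at -0.83 (adjusted p = 0.0521). Without a filter on low counts BAG3 was called lower (-0.92, edgeR, adjusted p = 0.0175), beside 0.798% of 39344 genes, with the limit given above for that fit. With control replicate 3 alone, HSP90AA1 was at 0.53, HSPD1 at 0.27, HSPE1 at 0.10 and BAG3 at -0.04.

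The chaperone network beyond the 10 members was covered by 8 lists of 86 genes. edgeR with all libraries called 0 genes of these lists in any of the 3 comparisons, beside the 0.0177%, 0 and 0% of all genes called, and DESeq2 called DNAJA4 lower in BD than in control (adjusted p = 0.0291). For BD against NBD 4 of the 78 list genes tested had an unadjusted p under 0.05 (DNAJA4, CHORDC1, BAG6 and HSF1), a share near the 5.86% of all genes. Counts of genes outside the range of the 6 sorted libraries differed by list and by control library, and no test of these differences was run. Of 15 HSP90 cochaperones and relatives, 8 stood above all sorted libraries in control replicate 1, 9 in control replicate 2 and 1 in control replicate 3, and 3, 2 and 1 lay below. Of 15 genes for TRiC, the cytosolic chaperonin of actin and tubulin, and for prefoldin, which feeds it, 10, 11 and 0 lay above and 1, 1 and 0 below. Of 11 chaperones of the endoplasmic reticulum and mitochondria, 0 lay above in any control library, and 6, 2 and 1 lay below. Over all genes 24.4, 25 and 5.87% lay above and 28.5, 28.4 and 6.81% below in the same 3 libraries, so the 2 organelle genes below in control replicate 2 are no more than the background. The organelle list leaves out HSPD1 and HSPE1, which lay above all sorted libraries in control replicates 1 and 2.

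**Figure D5:**
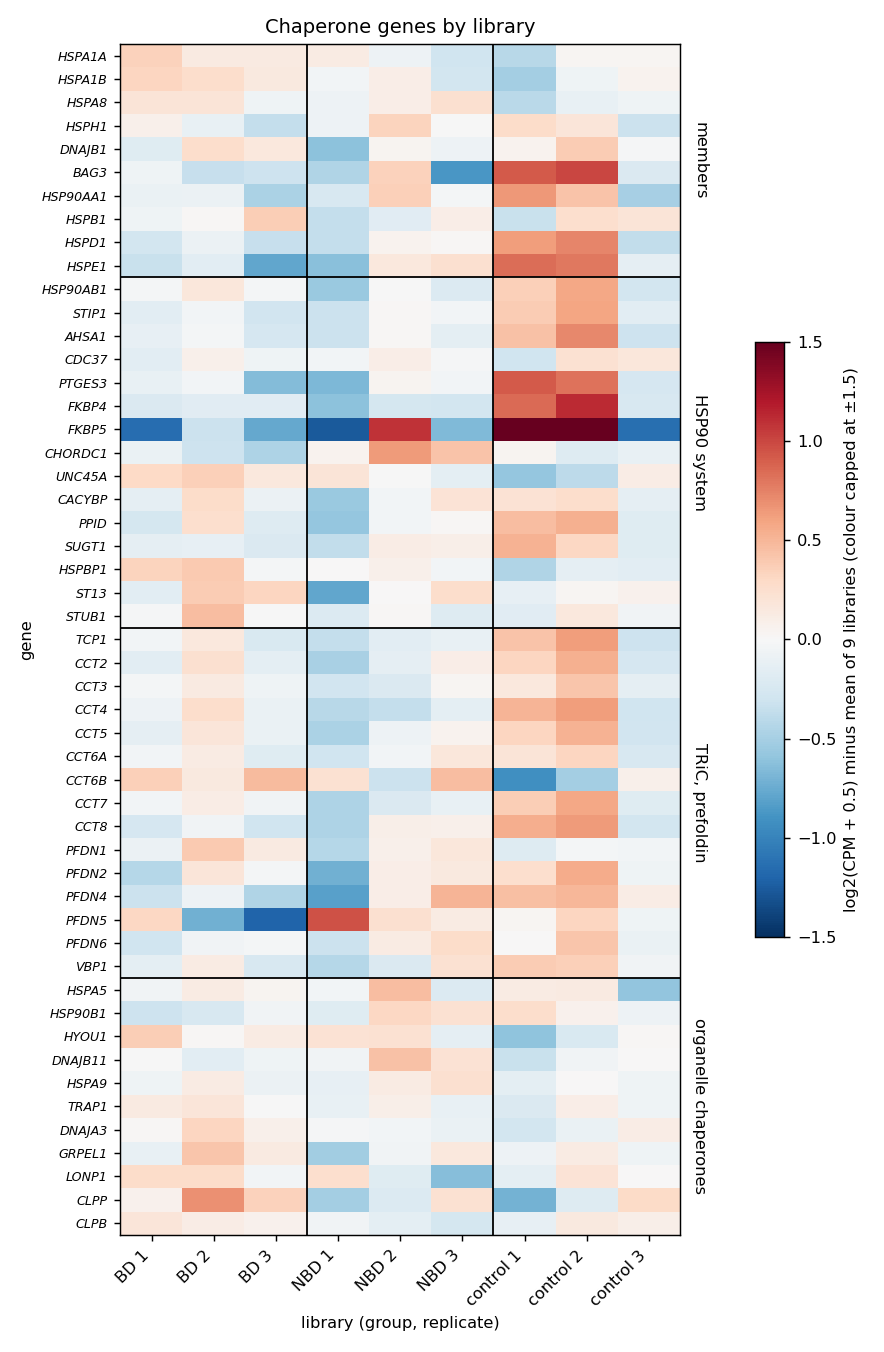
Chaperone genes in rows and the 9 libraries in columns; colour gives log2 of CPM plus 0.5 minus the gene's mean over the 9 libraries, capped at the ends of the scale. Control replicates 1 and 2 are red for most HSP90-system and TRiC genes and for BAG3, HSP90AA1, HSPD1 and HSPE1, and control replicate 3 resembles the sorted libraries in colour for most of them.

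FKBP4, the immunophilin that rides on HSP90 with steroid receptors, is one example. It stood at 172, 178 and 178 CPM in BD and 130.2, 166 and 165 in NBD, against 360, 436 and 169 in control. Control replicates 1 and 2 lay far above every sorted library, and control replicate 3 lay among them. The fold change was -0.87 ± 0.30 for BD and -1.06 ± 0.30 for NBD over control (edgeR, adjusted p = 0.333 for BD and 0.539 for NBD), and FKBP4 was called lower in both without control replicate 3 (0.00177 and 0.00103). FKBP5, a steroid-induced relative, gave -2.62 ± 0.93 for BD over control at levels from 1.01 to 2.16 CPM in BD, against 13.4, 14.1 and 1.02 in control. The median of the HSP90 system was -0.22 for BD and -0.29 for NBD over control, with 11 and 12 of 15 below 0. The medians over all genes were 0.03 and 0.04. Without control replicate 3, 6 and 4 of the 15 were called lower and 1 and 0 higher. In that fit 10.5% of all genes were called lower for BD and 6.56% for NBD, and 24.3% in either direction for BD. TRiC and prefoldin had medians of -0.28 and -0.36, with 13 and 12 of 15 below 0. CCT4, a TRiC subunit, stood at 378, 479.7 and 374 CPM in BD and 299.6, 311 and 361 in NBD, against 572, 616 and 326 in control, or -0.64 ± 0.25 for NBD over control (edgeR, adjusted p = 0.539). CCT8 gave -0.55 ± 0.26 for BD, CCT7 -0.55 ± 0.22 for NBD and the prefoldin subunit PFDN4 -0.64 ± 0.30 for BD.

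Of the HSP70 relatives 7 of 9 could be tested. HSPA4, an exchange factor akin to HSPH1, gave -0.37 ± 0.25 for BD and -0.54 ± 0.25 for NBD over control, and HSPA12A, a distant relative, -1.28 ± 0.43 and -0.96 ± 0.43 (edgeR, adjusted p from 0.333 to 0.539). HSPA12A had 40.0 and 36.9 CPM in control replicates 1 and 2 and 11.7 in control replicate 3, which lay inside the sorted range. Between BD and NBD, HSPA12A was at -0.32 ± 0.43 (95% interval -1.27 to 0.62) and HSPA2 at 0.19 ± 0.34 (-0.56 to 0.95), neither called.

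Among 13 J-domain genes, DNAJA4 was lower in each BD library than in any other. It stood at 15.2, 14.6 and 12.6 CPM in BD, against 23.3, 32.1 and 16.8 in NBD and 43.1, 39.6 and 19.4 in control. The gap to the nearest NBD library was small, and the fold change was -1.27 ± 0.32 over control (edgeR, unadjusted p = 0.00248, adjusted p = 0.333) and -0.76 ± 0.32 over NBD (adjusted p = 0.814). DNAJC2, a ribosome-bound relative, gave -0.43 ± 0.22 for BD over NBD. DNAJB2 gave 0.39 ± 0.19 for BD and DNAJA2 -0.61 ± 0.26 for NBD over control. The list median was -0.22 for BD over NBD, beside -0.02 for all genes, with 9 of 13 below 0.

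CHORDC1, a heat-inducible HSP90 cochaperone, was the HSP90-system gene with an unadjusted p under 0.05 for BD against NBD, with 65.7, 56.7 and 51.0 CPM in BD, against 73.1, 109.5 and 94.4 in NBD and 72.2, 61.3 and 65.2 in control. It was lower in each BD than in each NBD library, at -0.68 ± 0.19 (edgeR, unadjusted p = 0.00463, adjusted p = 0.675). ST13, which bridges HSP70 and HSP90, gave 0.30 for the same comparison. In the BAG family, BAG6, which guards newly made membrane proteins, stood at 179, 184 and 178 CPM in BD, against 156, 103 and 91.5 in NBD and 119, 135 and 157 in control. BD lay above the other 6 libraries, with 0.63 ± 0.22 over NBD (edgeR, adjusted p = 0.814) and 0.40 ± 0.22 over control. BAG1, an HSP70 exchange factor, gave 0.36 ± 0.20 over NBD, BAG2 -0.37 ± 0.24 for BD over control and BAG5 -0.44 ± 0.16 for NBD over control.

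Organelle chaperones gave no call. The median of 11 genes was 0.15 for BD over NBD, 0.14 for BD over control and 0.03 for NBD over control. Over all genes the medians were -0.02, 0.03 and 0.04. edgeR called 0 of the 11 in any of these, with or without control replicate 3. With all 3 controls it called 0 of 16921 genes against control, so the 0 there says nothing about this list. Without control replicate 3 it called 24.3% of all genes for BD against control. CLPP, a mitochondrial protease, gave 0.53 ± 0.29 for BD over NBD and 0.55 ± 0.29 over control, HSP90B1, the HSP90 of the endoplasmic reticulum, -0.34 ± 0.21 for BD over NBD, HYOU1, a large HSP70 relative there, 0.43 ± 0.21 for BD and 0.37 ± 0.21 for NBD over control, and DNAJB11, a J-domain partner of HSPA5, 0.34 ± 0.18 for NBD over control. HSPA9, the mitochondrial HSP70 that imports clients for HSPD1, stood at 629, 717 and 619 CPM in BD and 607, 718 and 782 in NBD, against 597, 661 and 631 in control. Its control libraries lay close together, unlike those of HSPD1 and HSPE1.

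Other genes under HSF1 or near it were mixed. SQSTM1, the autophagy receptor p62, had 910.2, 598 and 563 CPM in BD and 789, 431 and 556 in NBD, against 170.1, 202 and 531 in control. TXNRD1, thioredoxin reductase, ran opposite, at 184, 155 and 155 CPM in BD and 184, 254 and 155 in NBD, against 446, 456 and 135 in control. Both genes are better known as part of the NRF2 response, and both again differed between control replicates: the fold changes of BD over control were 1.20 ± 0.43 for SQSTM1 and -1.07 ± 0.39 for TXNRD1 (edgeR, adjusted p = 0.338 and 0.341), and with control replicate 3 alone 0.37 and 0.28. For NBD over control they were 0.98 ± 0.43 and -0.81 ± 0.39. UBB, a polyubiquitin gene induced by heat, gave 0.46 for BD over NBD.

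The nearest genes to 3 members were found over the 9 libraries among 8822 protein-coding genes, by the root-mean-square difference of log2 CPM centred on each gene's mean. For HSPA1A, whose SD was 0.222 on that scale, these were GCDH at 0.07, OPA3 at 0.081 and SMO at 0.082. For HSPH1, with an SD of 0.231, they were TJP1 at 0.093, XPO4 at 0.093 and PDSS1 at 0.096. For HSPD1, with an SD of 0.393, they were WDR3 at 0.054, GTF2H3 at 0.078 and PLS3 at 0.078. WDR3, a ribosome biogenesis factor, ran from 104 to 219 CPM. With many candidates and few libraries close matches are common, and all 3 HSPD1 matches share its difference between control replicates.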

How the data were processed

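Counts per gene, with no normalization, were deposited by the authors for 9 HaCaT libraries. They were made with FastQC 0.74, Trimmomatic 0.39, STAR 2.7.11b and featureCounts on GRCh38, per the submitters' processing notes. Libraries were stranded, rRNA-depleted and paired-end, per the labels' protocols. Not given in the sources used here are the annotation release, the strand and multiple-match settings, and which of 2 RNA kits served which library. Genes with near-identical copies or overlapping exons therefore have uncertain counts. DNAJB1 overlaps TECR and HSP90AA1 overlaps WDR20 on opposite strands, and HSPB1, HSPD1 and HSP90AA1 share 5.06%, 3.9% and 2.14% of their 100-base windows with other transcripts, mostly pseudogenes.

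IDs were matched to symbols (61512 of 78899) and to GENCODE 29 (57338). In edgeR 4.0.16 and R 4.3.3, filterByExpr left 16921 genes, TMM scaled the libraries, and the quasi-likelihood model had 1 coefficient for each group and 6 residual degrees of freedom over 9 libraries. Tests were two-sided, adjusted by Benjamini-Hochberg over all genes tested, with a call at an adjusted p under 0.05. Errors of log2 fold changes are standard errors, and intervals are at 95%. CPM are counts relative to the TMM-scaled total. Levels per kb divide by the union of annotated exons. Figures used Python 3.11.15 and matplotlib 3.10.9.

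The members and all lists were chosen with earlier results of these data known. Named beside the members are, per list, up to 3 called genes or the 2 with the largest fold change at 5 CPM or more, HSF1 and HSF2, and the 3 nearest genes of HSPA1A, HSPH1 and HSPD1. HSPA6, HSPA9, HSP90AB1, HSPB8, single marker genes and other list members at 0 or with few counts were named after their values were seen. Alternatives were other size factors, no filter, DESeq2 1.42.0, a replicate block, the 6 libraries compared alone, mitochondrial rRNA removed, HSPA1A and HSPA1B summed, each library left out and control replicate 3 alone. The lone control there is assumed to vary like the other groups. The edgeR script was tested on simulated data. The labels do not say that replicates are separate cultures; p-values therefore reflect the spread among these libraries, possibly technical.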

Additional observations from a re-analysis of the deposited data

How the results depend on the processing

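Calls depended on the control libraries and on the filter. For BD against control, the fit without a filter had smaller standard errors for FOS, HSPE1 and BAG3, as given above. Genes called for BD against NBD numbered 131 without a filter, 58 with DESeq2, 5 with the 6 compared libraries alone, 0 with a replicate block, and 0 to 16 leaving out 1 library, where 16 came without control replicate 3. For BD against control they numbered 1162 without a filter, 167 with DESeq2 and 0 to 4317 leaving out 1 library, and for NBD against control 594, 30 and 0 to 3228, both highest without control replicate 3. Members called numbered 2 for BD against control without a filter (HSPE1, adjusted p = 0.00430, and BAG3, 0.0134) and 0 to 4 leaving out 1 library, and 1 for NBD against control without a filter (BAG3, edgeR, adjusted p = 0.0175) and 0 to 2 leaving out 1. The cause was not tested.

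The members' median ran from -0.07 to 0.13 for BD against NBD leaving out 1 library. Against control it ran from -0.23 to -0.04 for BD and from -0.28 to -0.09 for NBD, and it was 0.15 and 0.03 with control replicate 3 alone. That setting reversed HSPH1 (0.20), DNAJB1 (0.11), HSPB1 (-0.07), HSP90AA1 (0.28) and HSPD1 (0.13) for BD, and HSPA1A (-0.13), HSPA1B (-0.14), HSP90AA1 (0.53), HSPD1 (0.27) and HSPE1 (0.10) for NBD. BAG3 for BD against NBD was -0.01 with the 6 libraries alone.

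Leaving out 1 library also turned the sign of small values: HSPA8 (-0.05 to 0.11) and BAG3 (-0.23 to 0.42) for BD against NBD, DNAJB1 (-0.15 to 0.06) and HSPB1 (-0.11 to 0.16) for BD against control, and HSPA1A (-0.11 to 0.13), HSPA1B (-0.06 to 0.23), HSPH1 (-0.12 to 0.14) and HSP90AA1 (-0.48 to 0.01) for NBD against control. HSPA1A and HSPA1B kept their sign for BD against NBD and BD against control under every setting run.

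The labels do not say whether libraries with the same replicate number belong together. Deviations of same-numbered libraries correlated at 0.612, 0.0684 and 0.328 for BD and NBD. For BD and control they correlated at 0.249, 0.0399 and 0.261, and for NBD and control at 0.036, 0.441 and 0.372. All of these were above 0, while pairs with different numbers ran from -0.566 to 0.421. Among NBD libraries, BD replicate 2 correlated best with NBD replicate 3 (0.421). Pairing is thus not settled. The replicate block called 0 members for BD against NBD. With 3 libraries a group, a fold change of about 2 can be missed, and HSPA6 and most small heat shock protein genes are below what these depths can compare.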
